A study of Mus musculus with 8 samples.

Results

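Collagens are the trimeric matrix proteins that form the scar of a fibrotic liver, and the genes described here are the mouse collagen chain genes, chosen as every gene whose whole symbol reads Col, digits, a, digits. The bulk liver table held 31 such genes among 15283, the table of liver nuclei held 43 among 22578, all 31 were in both and 12 were in the nucleus table alone. The livers came from 2 genotypes of mice that all carried floxed alleles (flox/flox) and had all eaten a MASH diet, a model of metabolic dysfunction-associated steatohepatitis, for 30 weeks. Control mice carried the floxed alleles without Cre. Tgfbr1 MKO mice carried them with LysMcre, a Cre recombinase made from the myeloid lysozyme locus, so that Tgfbr1, the type I receptor for TGF-beta, is targeted in macrophages and other myeloid cells. Bulk RNA-seq covered 3 control and 3 MKO libraries of whole liver, and single-nucleus RNA-seq covered 1 pool of 3 livers per genotype, averaged by the authors over 13 clusters. No mice on another diet and no mice with Cre and intact Tgfbr1 were in the groups used here. The comparison asks whether collagen transcripts of a MASH liver differ when myeloid cells lack the receptor.

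Collagen chains wind into triple helices in the endoplasmic reticulum after their prolines and lysines have been hydroxylated, are secreted as procollagens, trimmed and crosslinked. Fibrillar collagens I, III and V build the fibres of a scar, collagen IV builds basement membranes, collagen VI forms beaded filaments around cells, and fibril-associated collagens such as XIV and XVI coat the fibres. In liver, hepatic stellate cells and portal fibroblasts are known as the main sources of fibrillar collagen, TGF-beta is known to induce those genes in them, and hepatocytes are known to make collagen XVIII, whose tail is released as endostatin.

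Promoters of 6 members are shown because each stands for a cluster or a gene pair described below. Col3a1 and Col1a2 stand for the fibrillar chains of stellate nuclei, Col13a1 for sinusoidal endothelial nuclei, Col8a1 for vascular endothelial nuclei and Col18a1 for hepatocyte nuclei. Col18a1 has another annotated start, where the longest run outside exons was 9 bases, so that no stretch is shown for it. Which start the hepatocyte nuclei used was not tested. Col4a4 stands for the paired collagen IV genes, since its stretch is the whole gap between its start and that of Col4a3. The sequences are RefSeq's (GRCm38.p6, the build also called mm10), 5′ to 3′ on the strand of the gene, from the 250 bases before the annotated start. Bases that lie in an exon were left out, and the longest run without them is shown. The shorter stretches of Col1a2, Col18a1 and Col4a4 therefore need not end at the start. Motifs in the bases left out are not marked. Capitals mark 4 short motifs on either strand: TATAAA (the TATA box), CCAAT (the CCAAT box), CAGAC (a motif that Smad proteins can bind) and GGGCGG (the GC box). None of the 4 motifs contains another.
Col3a1 (chr1:45311288-45311537, + strand): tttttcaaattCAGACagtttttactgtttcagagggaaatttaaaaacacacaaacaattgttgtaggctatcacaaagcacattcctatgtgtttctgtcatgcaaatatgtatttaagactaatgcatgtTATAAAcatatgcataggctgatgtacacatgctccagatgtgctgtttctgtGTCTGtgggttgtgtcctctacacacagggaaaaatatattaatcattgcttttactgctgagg
Col1a2 (chr6:4505370-4505492, + strand): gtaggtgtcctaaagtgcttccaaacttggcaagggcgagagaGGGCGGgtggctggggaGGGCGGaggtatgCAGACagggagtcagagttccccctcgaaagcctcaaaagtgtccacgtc
Col13a1 (chr10:61979109-61979358, - strand): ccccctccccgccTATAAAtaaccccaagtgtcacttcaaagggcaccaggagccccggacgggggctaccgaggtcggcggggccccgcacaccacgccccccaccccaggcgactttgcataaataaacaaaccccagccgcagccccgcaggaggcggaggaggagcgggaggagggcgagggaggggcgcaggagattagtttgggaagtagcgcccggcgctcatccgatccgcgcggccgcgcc
Col8a1 (chr16:57754738-57754987, - strand): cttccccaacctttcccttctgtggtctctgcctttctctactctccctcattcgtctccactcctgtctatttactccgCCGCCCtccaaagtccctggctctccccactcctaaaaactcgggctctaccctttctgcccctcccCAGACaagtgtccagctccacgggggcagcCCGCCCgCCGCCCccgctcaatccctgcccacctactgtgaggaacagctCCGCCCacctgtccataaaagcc
Col18a1 (chr10:77166549-77166780, - strand): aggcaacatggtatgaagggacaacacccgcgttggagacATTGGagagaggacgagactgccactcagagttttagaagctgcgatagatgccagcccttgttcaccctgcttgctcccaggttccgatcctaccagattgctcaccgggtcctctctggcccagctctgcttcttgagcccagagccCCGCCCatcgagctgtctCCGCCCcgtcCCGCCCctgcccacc
Col4a4 (chr1:82586850-82586920, - strand): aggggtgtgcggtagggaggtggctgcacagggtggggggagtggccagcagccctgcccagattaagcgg

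Col3a1 held 1 TATAAA and 2 CAGAC motifs in this stretch, and Col1a2 held 1 CAGAC and 2 GGGCGG motifs. Col13a1 held 1 TATAAA, Col8a1 held 1 CAGAC and 4 GGGCGG, and Col18a1 held 1 CCAAT and 3 GGGCGG. The gap between Col4a3 and Col4a4 held none of the 4 motifs. The RefSeq table had an entry for 35 of the 43 members, with 38 windows of 250 bases before a start. TATAAA occurred in 5 of the 38 windows against 12.4% of all 32851 windows in the table. CCAAT occurred in 13 of 38 against 33.8%, CAGAC in 17 of 38 against 42.2%, and GGGCGG in 22 of 38 against 32.7%. A motif match is a description of the letters and not a binding site.

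Recovered reads lay between 17448117 and 23986319 per bulk library. Values are normalised reads, that is, counts scaled by the size factor of each library, and 1 read was worth 0.963 to 1.22. Tgfbr1 itself was read at 737, 810 and 777 in the controls and at 560, 857 and 735 in the MKO livers, and its mean signal in the macrophage-like nuclei was 13.5 in control nuclei and 4.87 in MKO nuclei. Albumin (Alb), which defines hepatocytes, averaged 1106240 normalised reads in the controls and 1079800 in the MKO livers. Of 9 macrophage markers, 6 were called higher in the MKO livers by limma, against 3.05% of all genes called in either direction. The summed value of the 9 was 2520 to 6904 in the controls and 9685 to 14888 in the MKO livers. Separate animals behind the 3 libraries of each genotype are not stated in the labels, and p-values therefore cover the spread among these libraries only. Reads without molecular identifiers are not independent molecules.

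Among the collagens, controls 2 and 3 and MKO 1 stood apart the most. Control 3 was the highest control for 19 of the 31 members (61.3%, against 33.5% of all genes tested). It was the highest of all 6 libraries for 10 (32.3%, against 16.6%). MKO 1 was the highest MKO library for 19 of 31 (61.3%, against 35.1% of all genes tested). It was also the highest of all 6 for 10 (32.3%, against 21.8%). Control 2 was the lowest control for 18 of 31 (58.1%, against 32.5% of all genes tested), and MKO 3 the lowest MKO library for 14 (45.2%, against 30.3%). Hepatocyte markers ran the other way, with a mean log2 deviation of 8 markers of -0.20 in control 3, -0.20 in MKO 1 and 0.27 in control 2, against -0.04 to 0.16 in the other 3 libraries. None of the 8 was at 0, 0 were called by limma, and their part in the collagen values was not tested. For several members described below, values without 1 of these libraries stand beside those of all 6.

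**Figure D1:**
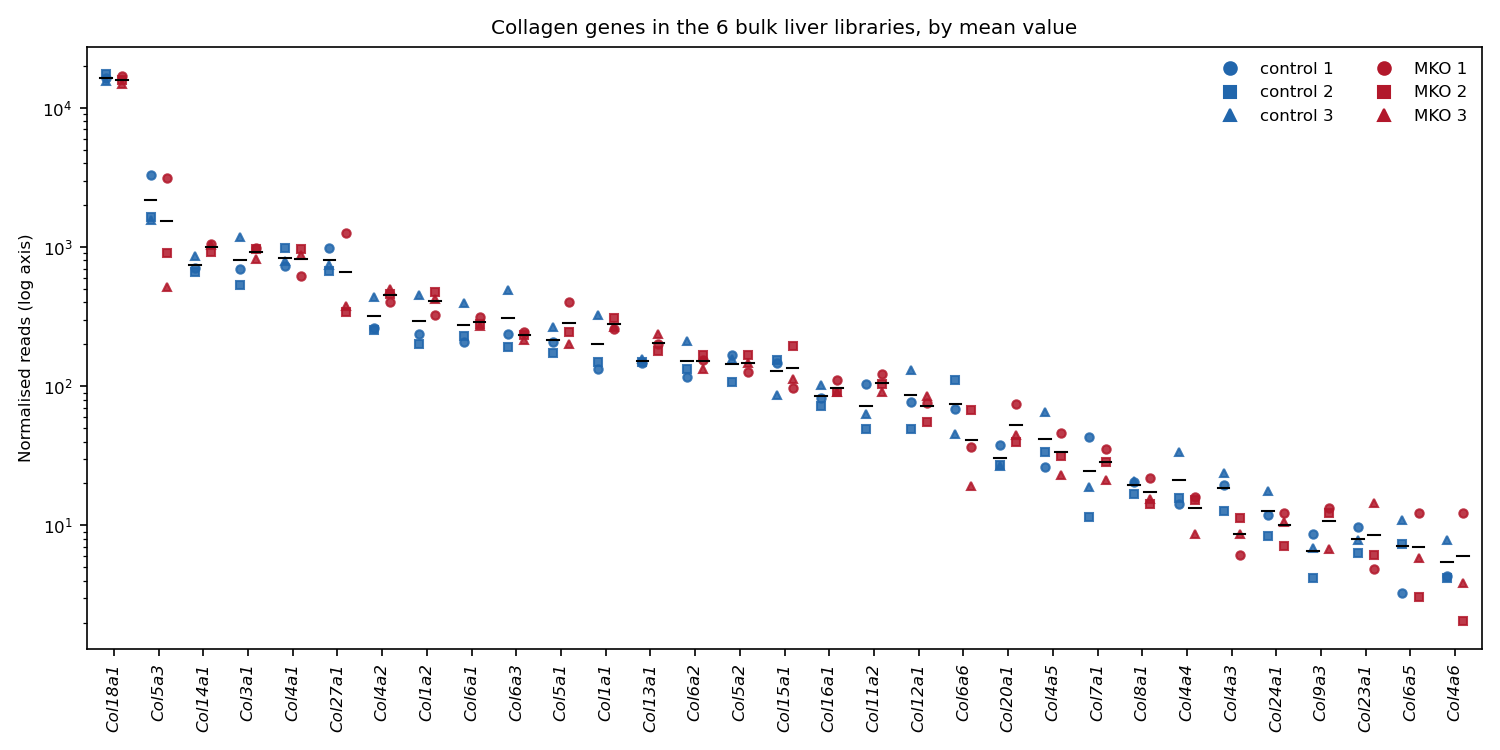
Normalised reads (log axis) of the 31 collagen genes in the 6 bulk libraries, ordered by mean value. Points are libraries (blue control, red MKO, symbols give the library number) and black bars are group means. Col18a1 lay between 14759 and 17381 in all 6 libraries, and Col5a3 spread from 519 to 3313.

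Transcript levels can be compared between genes only per length, so the control values were divided by the length of each gene's principal transcript (GENCODE vM21). On this scale the family was dominated by Col18a1, the endostatin precursor, at 3424 ± 198 normalised reads per kb (SD, n = 3), which was 71.9% of the family total. Col5a3, a minor fibrillar chain that joins collagen V, followed at 355 ± 162. The fibrillar chain of collagen III, Col3a1, stood at 144 ± 60.8, the fibril-associated Col14a1 at 131 ± 18.7, the basement membrane chain Col4a1 at 126 ± 20.4 and the fibrillar Col27a1 at 105 ± 22.2. Collagen I, the main scar collagen, was lower: Col1a2 at 55.4 ± 25.2 and Col1a1 at 34.1 ± 18.0.

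Of the 30 neighbouring pairs in this order, 27 had control ranges that overlapped. The order is therefore clear only where they did not: Col18a1 above Col5a3, Col5a3 above Col3a1, and Col20a1 (6.11 ± 1.27 per kb) above Col8a1 (3.79 ± 0.437). Collagens IV alpha 3 and alpha 4, IX, XXIII and XXIV lay between 1.41 and 2.17 per kb, and Col4a6 and Col6a5 lay under 1. These low members rest on few reads per library. Col4a6 was read at 4.34, 4.20 and 7.88 in the controls.

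The nucleus clusters tell which cells held these transcripts. Clusters were called after the cell type with the largest share of its markers enriched, where at least 3 were. A marker was enriched where it reached the 90th percentile of non-zero genes of the cluster and 2-fold or more of the median of the other clusters. Clusters 0 and 3 were hepatocyte-like, 2 macrophage-like, 4 sinusoidal endothelial-like, 5 stellate-like, 6 bile duct-like, 7 T or NK-like, 8 B lineage-like, 9 vascular endothelial-like, 11 plasmacytoid dendritic-like and 12 mesothelial-like. Cluster 10 held all 7 markers of dividing cells and 6 of 9 macrophage markers. Cluster 1 stayed unnamed, with 2 of 8 hepatocyte markers enriched (Cps1 and Apob). The names of clusters 0 and 3 rest on 3 of 8 hepatocyte markers each. Cluster 4 also had 3 of 7 vascular endothelial markers enriched, and cluster 9 had 3 of 7 sinusoidal ones. Values are mean signal, scaled so that all genes of a cluster and pool sum to 10000. Numbers of nuclei per cluster were not given in the sources used here. No interval can therefore be given, and nuclear RNA holds unspliced transcripts, so values are compared between clusters and not between genes. A member counted as measurable in a cluster where the larger of its 2 pool values reached the 90th percentile of non-zero genes there. With 1 pool per genotype there is no test and no p-value for any nucleus value.

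Of the 43 members, 18 were measurable in at least 1 cluster and 25 in none. The summed collagen signal was highest in the mesothelial-like cluster 12 (44.7 in control nuclei and 40.2 in MKO nuclei), followed by the stellate-like cluster 5 (38.4 and 38.2) and the vascular endothelial-like cluster 9 (23.2 and 16.6). The bile duct-like cluster 6 held 11.5 and 10.4, the sinusoidal cluster 4 held 8.55 and 8.69, and clusters 0, 1 and 3 held 5.28 to 7.06 in the control pool. The macrophage-like cluster 2, whose cells the Cre targets, held 1.44 in control nuclei and 1.20 in MKO nuclei. None of the 43 members was measurable in clusters 2, 7, 8, 10 or 11, the immune and dividing nuclei.

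**Figure D2:**
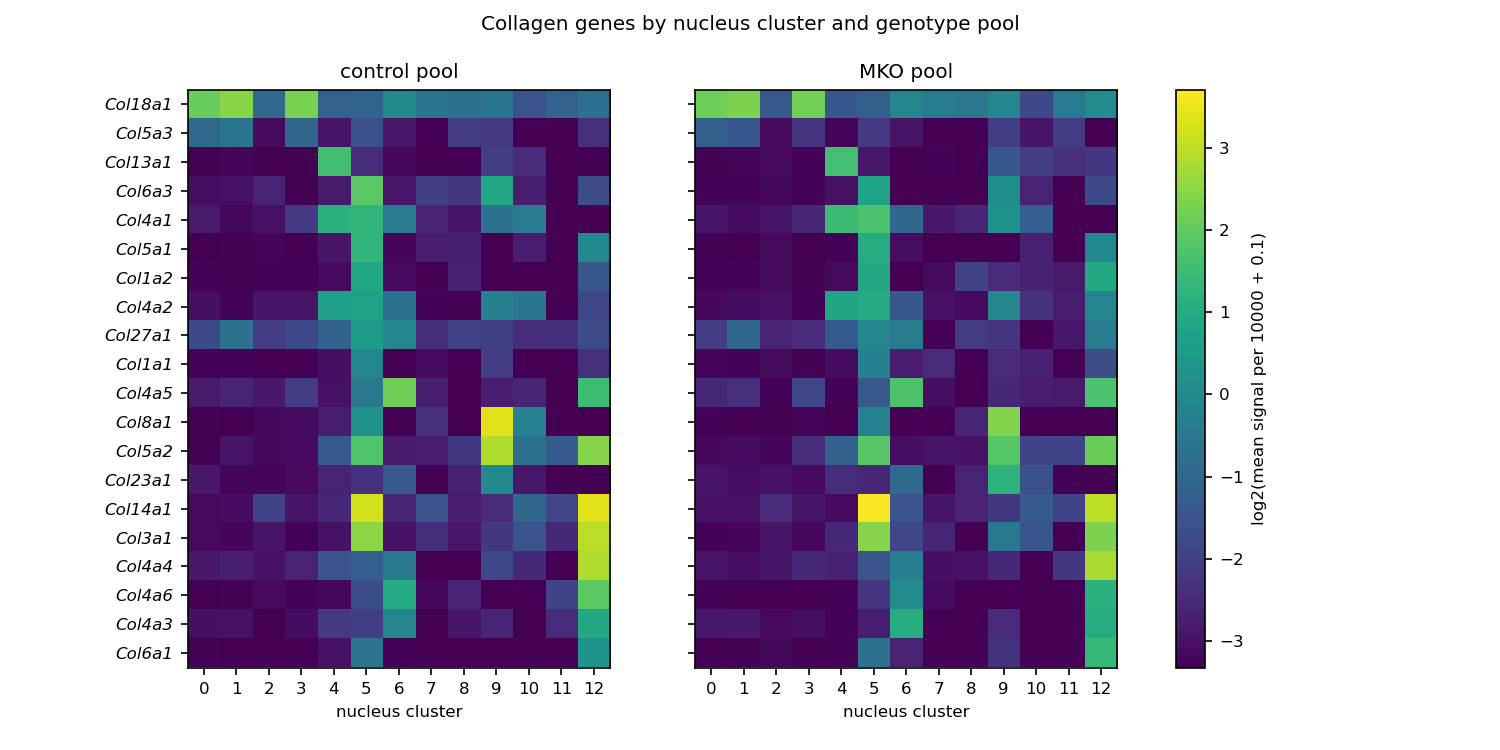
Mean signal per 10000 (colour, log2 after adding 0.1) of the 18 collagen genes measurable in at least 1 nucleus cluster, with Col1a1 and Col5a3 added, in the 13 clusters of the control pool (left) and the MKO pool (right). The bright blocks are Col18a1 in clusters 0, 1 and 3, Col13a1 in cluster 4, Col14a1 and Col3a1 in clusters 5 and 12, and Col8a1 in cluster 9.

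Stellate-like nuclei carried 9 measurable members. Col14a1, which coats fibres, was at 9.16 in control nuclei and 12.5 in MKO nuclei. Col3a1 was at 5.49 and 5.30, and Col6a3, a chain of the collagen VI filaments, at 3.61 and 1.58. The others were the fibrillar Col5a2 (3.29 and 3.55), Col5a1 (2.37 and 1.92), Col1a2 (1.70 and 1.77) and Col27a1 (1.34 and 0.815) and the basement membrane chains Col4a1 (2.37 and 3.19) and Col4a2 (1.55 and 1.90). Col1a1, the partner of Col1a2 in collagen I, was highest in this cluster too, at 0.840 and 0.756, but below the threshold of 1.18 for a measurable member. For 6 of the 18 measurable members the stellate-like cluster was the highest of the control pool, and for 6 it was the mesothelial-like cluster.

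Mesothelial-like nuclei, which line the liver surface, carried 7 measurable members. Col14a1 was at 10.4 in control nuclei and 7.94 in MKO nuclei, and Col3a1 at 7.77 and 4.88. Col4a4, a basement membrane chain known from the kidney glomerulus, was at 7.20 and 6.85 here and at 0.600 and 0.700 in bile duct-like nuclei, its second highest cluster. Col5a2 was at 5.28 and 4.29, Col4a6 at 3.68 and 2.08, Col4a5 at 2.79 and 3.15, and Col6a1 at 1.15 and 2.51. Collagen IV chains alpha 4 to alpha 6 were thus measurable in this cluster, while alpha 1 and alpha 2 were highest in stellate-like and next in sinusoidal nuclei. Alpha 3 (Col4a3) was highest here in the control pool, at 1.77 in control nuclei and 1.92 in MKO nuclei, below the threshold of 2.05.

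Vascular endothelial-like nuclei were marked by Col8a1, a short-chain network collagen of vessel walls, at 10.3 in control nuclei and 5.05 in MKO nuclei. Its second highest cluster was the stellate-like one, at 1.10 and 0.768. Col5a2 was at 7.17 and 3.52 in the same nuclei, Col6a3 at 1.72 and 1.02, and the transmembrane collagen Col23a1 at 0.882 and 2.21. Sinusoidal nuclei carried Col13a1, a transmembrane collagen of cell adhesion sites, at 2.86 and 2.96, with the next cluster at 0.141 in the control pool. They also held Col4a1 at 2.13 and 2.71 and Col4a2 at 1.51 and 1.65.

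Bile duct-like nuclei carried 3 collagen IV chains: Col4a5 at 4.44 and 3.27, Col4a6 at 1.91 and 0.956, and Col4a3 at 0.822 and 1.99. Hepatocyte-like nuclei and cluster 1 carried 1 measurable member, Col18a1. It was at 4.12 and 4.33 in cluster 0, at 5.37 and 4.84 in cluster 1 and at 4.74 and 4.54 in cluster 3. Col5a3, the second most abundant collagen transcript per kb in bulk liver, was below the threshold in every cluster. In the control pool its highest values were in the same 3 clusters, at 0.441 and 0.339, at 0.563 and 0.274, and at 0.394 and 0.112 in control and MKO nuclei.

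Several chain genes lie next to each other in the genome. Col4a1 and Col4a2, the 2 chains of the common collagen IV, start head to head on chromosome 8 and their annotated ends overlap by 22 bases. Strand settings of the counting were not given in the sources used here. Reads over the shared bases therefore cannot be assigned. Both were highest in cluster 5 and second highest in cluster 4 in both pools. Over the 13 clusters of the control pool their Pearson r, on log2(signal + 0.1), was 0.937, a description over clusters that share 1 library, with no test. Col4a3 and Col4a4 lie head to head with a gap of 71 bases, the stretch printed above, and had r = 0.922, with clusters 12 and 6 highest for both in the control pool. Col4a5 and Col4a6, on the X chromosome with a gap of 1308 bases, had r = 0.909 and the same 2 clusters in the opposite order.

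In bulk liver the ratio of Col4a1 to Col4a2 was 2.77, 3.86 and 1.79 in controls 1 to 3 and 1.52, 2.12 and 1.76 in MKO 1 to 3. That of Col6a1 to Col6a2, 2 chains of the same collagen VI filament, lay between 1.67 and 2.07 in the 6 libraries. That of Col1a1 to Col1a2 lay between 0.562 and 0.792. These ratios are of normalised reads not divided by transcript length, so they compare libraries and not the levels of the 2 chains.

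In bulk liver no collagen gene was called different between the genotypes. All 31 members passed the filter on low values. limma called 0 of them at an adjusted p under 0.05, against 3.05% of all 15249 genes tested, and edgeR and DESeq2 on recovered reads also called 0 (3.16% and 4.49% of all genes). At an unadjusted p under 0.05 limma found 5 of the 31, against 12.1% of all genes: 4 higher in the MKO livers (8.37% of all genes) and 1 lower (3.74%). At that level edgeR found 5 (12.3% of all genes) and DESeq2 4 (10.6%). The log2 fold change was above 0 for 16 members (45.9% of all genes were) and below 0 for 15, with a median of 0.02 against -0.02 over all genes and a range from -1.01 to 0.73. Whole-liver RNA cannot tell fewer cells of a type from less RNA per cell.

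In 4 members the genotypes did not overlap: Col14a1, Col13a1 and Col20a1 were higher in every MKO library and Col4a3 lower. Of all genes tested 19.4% did not overlap (10.4% higher and 9.02% lower). The count at an unadjusted p under 0.05 was 3 without control 1, 2 without control 2, 8 without control 3, 5 without MKO 1 or without MKO 2 and 2 without MKO 3. These counts are described against 9.80%, 9.16%, 10.6%, 14.2%, 13.2% and 10.3% of all genes in the same fits.

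**Figure D3:**
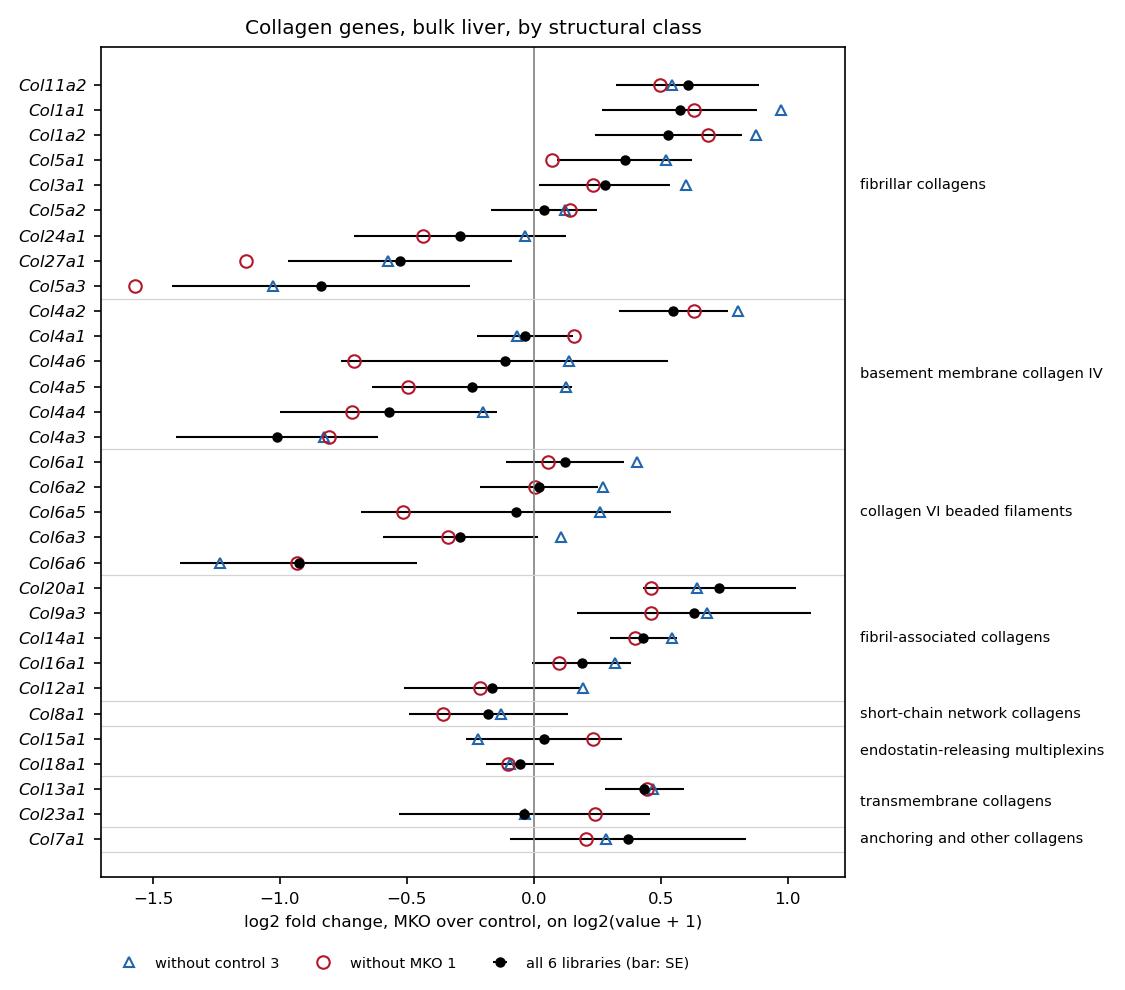
Log2 fold change of each collagen gene, MKO over control, grouped by structural class. Black points and bars are limma estimates and SE from all 6 libraries, blue triangles leave out control 3 and red circles leave out MKO 1. Col1a1 moved from 0.57 to 0.98 without control 3, and Col5a3 from -0.84 to -1.57 without MKO 1.

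The fibrillar chains had a median log2 fold change of 0.28, with 6 of 9 above 0, and 0 were called. Col3a1, the chain of collagen III, was read at 694, 529 and 1180 in the controls and at 976, 973 and 815 in the MKO livers. All MKO values lay inside the control range, and the log2 fold change was 0.28 ± 0.26 (SE; limma adjusted p = 0.747). It was 0.60 without control 3 (limma adjusted p = 0.171) and 0.02 without control 2 (limma adjusted p = 0.990). Col1a2 (chromosome 6) was read at 238, 201 and 450 and at 323, 477 and 420, with a log2 fold change of 0.53 ± 0.29 (limma adjusted p = 0.534). Controls 1 and 2 lay below every MKO library, and control 3 lay among them.

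Col1a1, whose chain makes up most of collagen I, was chosen for a full account after its values were seen. It was read at 134, 148 and 325 in the controls and at 256, 311 and 268 in the MKO livers, and control 3 was the highest of the 6. With all libraries the log2 fold change was 0.57 ± 0.31 (limma adjusted p = 0.524). Without control 3 it was 0.98 ± 0.17 (limma adjusted p = 0.0304), and Col1a2 moved to 0.88 ± 0.20 (limma adjusted p = 0.0858). Leaving out another control moved them the other way. Col1a1 was 0.34 without control 1 (limma adjusted p = 0.824) and 0.41 without control 2 (limma adjusted p = 0.846), and Col1a2 was 0.29 without control 2 (limma adjusted p = 0.880).

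Col5a3 and Col27a1 are fibrillar chains whose means were lower in the MKO livers, with MKO 1 far from the other 2. Col5a3 (chromosome 9) was read at 3313, 1632 and 1564 in the controls and at 3151, 905 and 519 in the MKO livers. Col27a1 (chromosome 4) was read at 990, 668 and 741 and at 1262, 344 and 376. In both genes library 1 was the highest of its genotype, and MKO 2 and 3 lay below every control.

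The log2 fold change of Col5a3 was -0.84 ± 0.59 (limma adjusted p = 0.653), and that of Col27a1 was -0.53 ± 0.44 (limma adjusted p = 0.716). Without MKO 1 they were -1.57 ± 0.36 (limma adjusted p = 0.0802) and -1.13 ± 0.17 (limma adjusted p = 0.0195). Without another MKO library they were smaller, at -0.27 for Col5a3 without MKO 3 (limma adjusted p = 0.882) and -0.19 for Col27a1 without MKO 2 (limma adjusted p = 0.892). Col27a1 was also lower in the MKO pool of the stellate-like nuclei, as given above, and in clusters 0, 1 and 3, at 0.200 and 0.137, 0.521 and 0.419, and 0.200 and 0.0790, all below the threshold there. In the mesothelial-like cluster it was higher in the MKO pool, at 0.212 and 0.658, also below the threshold. The remaining fibrillar members, Col5a1, Col5a2, Col11a2 and Col24a1, had log2 fold changes from -0.29 to 0.61. Among them Col5a1 moved from 0.36 to 0.07 without MKO 1 (limma adjusted p = 0.918).

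Fibril-associated collagens had the highest class median, 0.43, with 4 of 5 members above 0. Col14a1 (chromosome 15), which binds the surface of collagen I fibrils, was read at 700, 666 and 864 in the controls and at 1046, 916 and 1033 in the MKO livers. Every MKO library was above every control, and the log2 fold change was 0.43 ± 0.13 (95% interval 0.13 to 0.73; limma unadjusted p = 0.00996, adjusted p = 0.175). The authors' deposited table gives Col14a1 a log2 fold change of 0.42 with an adjusted p of 0.00795, the only collagen it calls, against 5.76% of all genes. DESeq2 on the recovered reads gave 0.43 and an adjusted p of 0.136.

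Col14a1 kept its direction without any 1 library, with limma log2 fold changes from 0.36 to 0.55. Col20a1 (chromosome 2), a fibril-associated chain of low level, was read at 38.0, 27.3 and 26.6 and at 74.5, 39.8 and 44.3. Every MKO library was above every control, and the log2 fold change was 0.73 ± 0.30 (limma adjusted p = 0.381). It was 0.46 without MKO 1 (limma adjusted p = 0.529). Col16a1, another fibril-associated chain, was read at 82.5, 72.4 and 102 and at 110, 90.8 and 90.5, and its groups overlapped (log2 fold change 0.19 ± 0.20; limma adjusted p = 0.780).

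Collagen IV, the scaffold of basement membranes, had a limma median of -0.18, and Col4a2 was the only one of 6 chains above 0 in that fit. Col4a6, which rests on few reads, was 0.07 with edgeR and 0.12 with DESeq2. Col4a2 was read at 262, 255 and 441 in the controls and at 405, 458 and 499 in the MKO livers. Control 3 lay inside the MKO range and controls 1 and 2 below it, and the log2 fold change was 0.55 ± 0.21 (limma adjusted p = 0.338). Without control 3 it was 0.81 ± 0.15 (limma adjusted p = 0.0428). Its partner Col4a1 was read at 725, 984 and 787 and at 615, 969 and 877, with a log2 fold change of -0.03 ± 0.19 (limma adjusted p = 0.968) and a 95% interval up to 0.40.

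Col4a3 (chromosome 1) was read at 19.5, 12.6 and 23.7 in the controls and at 6.10, 11.2 and 8.67 in the MKO livers. Control and MKO values did not overlap, and the log2 fold change was -1.01 ± 0.40 (limma adjusted p = 0.343). In bile duct-like nuclei, its highest cluster in the MKO pool, the order of the pools was the opposite, at 0.822 in control nuclei and 1.99 in MKO nuclei. The control value of Col4a3 lay there below the threshold of 1.44. In mesothelial-like nuclei, its highest cluster in the control pool, the values were 1.77 and 1.92, below the threshold. The other 3 chains, Col4a4, Col4a5 and Col4a6, had log2 fold changes from -0.57 to -0.11.

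Col4a3, Col4a4, Col4a5 and Col4a6, the chains of bile duct-like and mesothelial-like nuclei, were each highest in control 3 among the controls. Bile duct markers moved with that library: the mean log2 deviation of 8 markers was 1.08 in control 3 and between -0.28 and -0.12 in the other 5 libraries. Epcam, an epithelial adhesion protein of bile ducts, was read at 168 in control 3 and at 28.2 to 56.1 elsewhere. The summed value of the 8 markers was 844 to 1414 in the controls and 852 to 948 in the MKO livers, none of them was at 0 in any library, and 0 of 8 were called by limma. Mesothelial markers, of which 4 of a list of 7 were measured, summed to 45.1 to 130 in the controls and 50.1 to 115 in the MKO livers, and 0 were called. They were highest in control 3 and MKO 1, with mean log2 deviations of 0.94 and 0.98 against -1.14 to 0.25 in the other libraries, and Muc16 was at 0 in control 2. The part of either list in the collagen values was not tested.

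Collagen VI had a median of -0.07, with 2 of 5 chains above 0 and 0 called. Col6a3 was read at 239, 192 and 491 in the controls and at 247, 235 and 213 in the MKO livers. Its log2 fold change was -0.29 ± 0.31 (limma adjusted p = 0.784), and it turned to 0.11 without control 3. Col6a1 was read at 207, 228 and 393 and at 316, 278 and 273 (0.12 ± 0.23; limma adjusted p = 0.892), again with control 3 as the highest of the 6. Col6a6 had the lowest estimate of the class, -0.93, and its groups overlapped.

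Among the remaining classes, Col13a1 (chromosome 10), the transmembrane collagen of sinusoidal nuclei, was read at 146, 149 and 158 in the controls and at 201, 177 and 238 in the MKO livers. Every MKO library was above every control, and the log2 fold change was 0.44 ± 0.16 (95% interval 0.08 to 0.79; limma adjusted p = 0.279). It stayed between 0.33 and 0.54 without any 1 library. Within sinusoidal nuclei its signal was 2.86 in control nuclei and 2.96 in MKO nuclei.

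Sinusoidal endothelial markers were higher on average in the MKO livers too: all 7 had a log2 fold change above 0, 0 were called by limma, and their summed value was 4177 to 6022 in the controls and 5219 to 6814 in the MKO livers. Of 7 vascular endothelial markers 6 were above 0, 0 were called, and the sum was 934 to 1142 and 1225 to 1483, without overlap. None of these endothelial markers was at 0 in any library. Their part in the Col13a1 difference was not tested.

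Col18a1 (chromosome 10), the most abundant member, was read at 16341, 17381 and 15484 in the controls and at 16826, 15817 and 14759 in the MKO livers. Its groups overlapped, and the log2 fold change was -0.05 ± 0.13 (95% interval -0.36 to 0.25; limma adjusted p = 0.920). Col15a1, the related multiplexin of vessel basement membranes, was read at 146, 153 and 86.7 and at 97.6, 193 and 112 (0.04 ± 0.31; limma adjusted p = 0.977). These intervals limit the size of any change and do not show that the levels were alike.

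Col8a1 was read at 20.6, 16.8 and 20.7 in the controls and at 22.0, 14.3 and 15.4 in the MKO livers (-0.18 ± 0.31; limma adjusted p = 0.881). Col23a1, a transmembrane collagen, was read at 9.77, 6.30 and 7.88 and at 4.88, 6.12 and 14.4 (-0.04 ± 0.49; limma adjusted p = 0.986). Col7a1, the anchoring fibril collagen, was read at 43.4, 11.5 and 18.7 and at 35.4, 28.6 and 21.2 (0.37 ± 0.46; limma adjusted p = 0.821). In all 3 the groups overlapped.

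Leaving out control 3 and MKO 1 together, a setting chosen after the data were seen, left 2 controls and 2 MKO livers. Each of the libraries left out was the highest of its genotype for 19 of the 31 collagens. The calls below therefore rest on a choice tied to these same values and are a description only. limma then called 4 of 31 members, against 2.62% of all genes, and 8 were at an unadjusted p under 0.05, against 13.5%. Col1a1 (log2 fold change 1.03 ± 0.17, limma adjusted p = 0.0296), Col1a2 (1.03 ± 0.16, limma adjusted p = 0.0246) and Col4a2 (0.88 ± 0.13, limma adjusted p = 0.0238) were higher in the MKO livers. Col27a1 was lower (-1.18 ± 0.20, limma adjusted p = 0.0335). With control 3 alone left out 2 members were called, Col1a1 and Col4a2 (2.12% of all genes), and with MKO 1 alone left out 1 was called, Col27a1 (2.89%). limma called 0 without control 1, control 2, MKO 2 or MKO 3, where it called 2.70%, 1.59%, 1.18% and 1.25% of all genes.

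Stellate markers were low in the same 2 libraries, controls 1 and 2, as the collagens of stellate nuclei. The 9 members measurable in the stellate-like cluster had a mean log2 deviation of -0.14, -0.37 and 0.28 in controls 1 to 3 and of 0.18, 0.06 and -0.02 in MKO 1 to 3. The 10 stellate markers had -0.21, -0.23 and 0.11 and 0.20, 0.12 and 0.01. All 10 had a log2 fold change above 0, 0 were called by limma, and their summed value was 7960 to 10473 in the controls and 10180 to 10584 in the MKO livers. None of the 10 was at 0 in any library, and their part in the collagen values was not tested. Portal fibroblast and smooth muscle markers (8 of a list of 10 measured) had sums of 477 to 574 and 527 to 640, with 7 above 0 and 0 called.

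**Figure D4:**
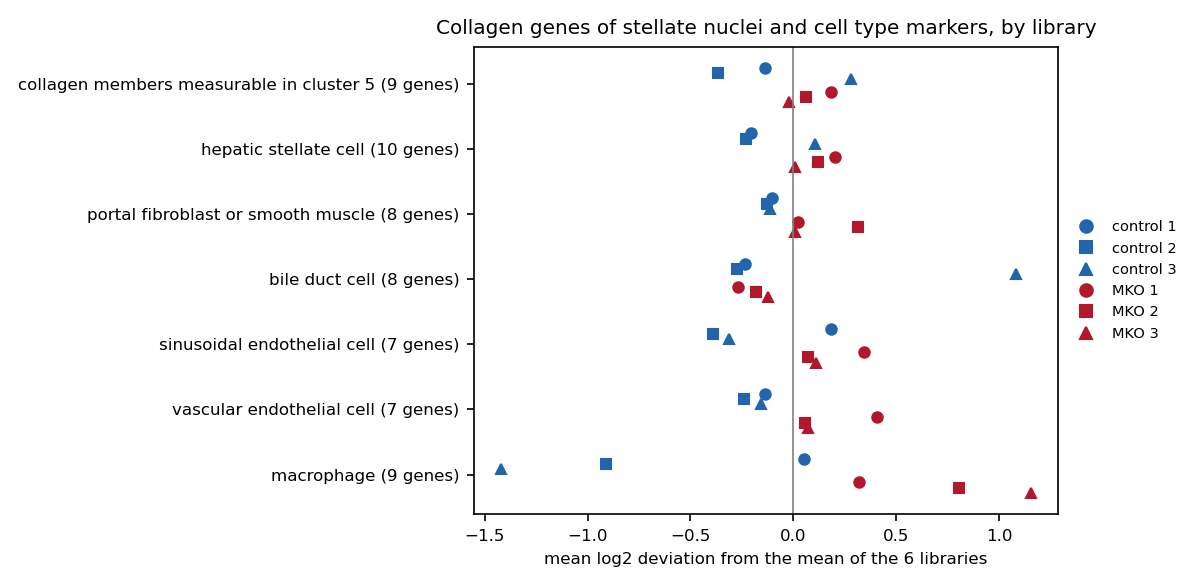
Mean log2 deviation of each gene list from the mean of the 6 bulk libraries, 1 point per library (blue control, red MKO, symbols give the library number). Control 3 lies at 0.28 for the collagens of stellate nuclei, at 0.11 for stellate markers and at 1.08 for bile duct markers, and the 3 MKO livers lie between 0.32 and 1.16 for macrophage markers.

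Between the 2 pools of nuclei, 29 pairs of a member and a cluster were measurable, and 5 passed a 2-fold difference. Ratios were taken after adding a small constant to both values, 1/10 of the threshold of the cluster. Col6a3 was lower in the MKO pool of stellate-like nuclei, with a ratio of MKO to control of 0.456, where 0.895% of measurable genes were lower by 2-fold. Col8a1 was lower in vascular endothelial-like nuclei at 0.497 (1.74% of genes), and Col23a1 was higher there at 2.26 (2.74%). Col5a2 in the same nuclei, at 0.503, lay just short of the limit. Col4a3 was higher in bile duct-like nuclei at 2.21, where 4.68% of genes were higher by 2-fold. Col6a1 was higher in mesothelial-like nuclei at a ratio of 2.0, where 6.90% of genes were. Col23a1, Col4a3 and Col6a1 reached the threshold only through the MKO pool. Their control values were 0.882, 0.822 and 1.15 against thresholds of 1.70, 1.44 and 2.05. The rule for a measurable member therefore favoured a higher ratio for them, and these ratios are a description only. Clusters 11 and 12 had the fewest genes with any signal in both pools, and 19.0% of the measurable genes of cluster 12 differed by 2-fold in either direction, so that a 2-fold difference there is common.

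The stellate-like nuclei and bulk liver can be set side by side for their 9 collagens. Col14a1 had a pool ratio of 1.36 in these nuclei and a bulk fold of 1.35, and Col4a2 had 1.21 and 1.46. Col3a1 had 0.966 and 1.21, and Col1a2 had 1.04 and 1.44. Col27a1 had 0.640 and 0.693, and Col6a3 had 0.456 and 0.818. Col5a2 had 1.08 and 1.03, Col5a1 had 0.819 and 1.28, and Col4a1 had 1.33 and 0.976. The pool ratio and the bulk fold thus lay on opposite sides of 1 for Col3a1, Col5a1 and Col4a1, and no bulk fold of the 9 passed the test. The median log2 ratio of the 9 was 0.05, against -0.13 over all measurable genes of the cluster.

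**Figure D5:**
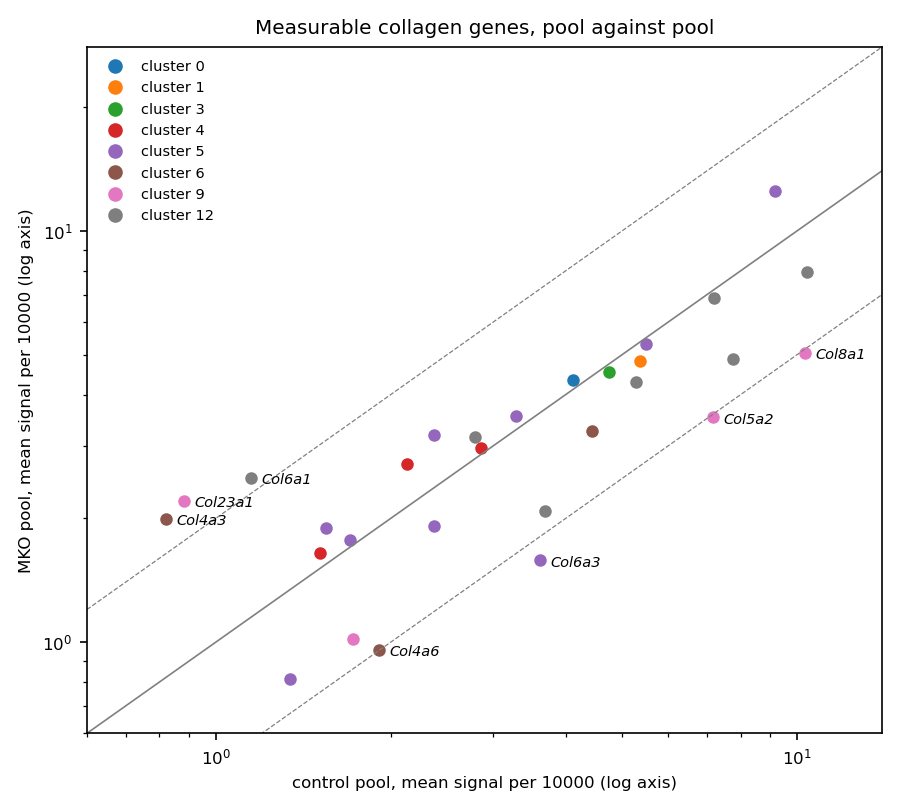
Mean signal per 10000 (log axes) of each measurable collagen gene in the control pool (x) and the MKO pool (y), 1 point per gene and cluster, coloured by cluster. The solid line marks equal values and the dashed lines a 2-fold difference without the added constant. Of the labelled points, Col8a1, Col5a2, Col6a3 and Col4a6 lie below the solid line and Col6a1, Col23a1 and Col4a3 above it.

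Genes that make, secrete, bind and cut collagen were read from 5 lists, with 56 genes tested and 2 called by limma, both higher in the MKO livers, against 3.05% of all genes. Of 15 chain modification and folding genes 0 were called (median log2 fold change 0.03). P4ha2, a subunit of the prolyl hydroxylase that stabilises the triple helix, was read at 143, 117 and 121 in the controls and at 73.2, 105 and 86.7 in the MKO livers. Every MKO library was below every control, and the log2 fold change was -0.53 ± 0.19 (limma adjusted p = 0.290). Serpinh1, the collagen chaperone, had 0.19 ± 0.16, P3h1, a prolyl hydroxylase, had -0.15 ± 0.13, and Colgalt2, a collagen galactosyltransferase, had 0.65 ± 0.45.

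Of 11 secretion, trimming and crosslinking genes 1 was called (median 0.21). Pcolce2, which enhances removal of the procollagen tail, was read at 21.7, 25.2 and 12.8 in the controls and at 57.4, 58.1 and 46.2 in the MKO livers (log2 fold change 1.44 ± 0.30, limma adjusted p = 0.0435). Its groups did not overlap, but the call was lost without any 1 of the 6 libraries (limma adjusted p from 0.0666 to 0.169). In the nuclei Pcolce2 was highest in clusters 2 and 10, below the threshold, at 0.880 and 0.720 and at 0.987 and 0.456. Macrophage markers were higher in the same MKO livers, as given above, and their part in the Pcolce2 difference was not tested.

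Lox, a crosslinking oxidase, was read at 15.2, 16.8 and 13.8 and at 22.0, 46.9 and 39.5 (1.13 ± 0.34; limma adjusted p = 0.173), and Pcolce at 84.7, 78.7 and 96.6 and at 120, 124 and 109 (0.44 ± 0.17; limma adjusted p = 0.327). In both genes every MKO library was above every control, and neither passed the test. Loxl2, another crosslinking oxidase, had 0.56 ± 0.28 with groups that overlapped.

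Of 12 fibril partners 0 were called, with a median of 0.25 and 9 above 0. Dcn, the proteoglycan decorin that binds fibrils, had 0.26 ± 0.15 in bulk, and its signal in the stellate-like cluster was 25.5 in control nuclei and 36.5 in MKO nuclei. Sparc, a collagen-binding glycoprotein, had 0.32 ± 0.16, Bgn, the proteoglycan biglycan, 0.25 ± 0.16, and Fbn1, a microfibril protein, 0.26 ± 0.25. Without control 3 Bgn was 0.42 (limma adjusted p = 0.240) and Fbn1 0.51 (limma adjusted p = 0.491).

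Of 8 collagen receptors 1 was called (median 0.14). Lair1, an inhibitory collagen receptor of leukocytes, was read at 95.6, 84.0 and 45.3 in the controls and at 179, 210 and 218 in the MKO livers (log2 fold change 1.48 ± 0.27, limma adjusted p = 0.0229). Every MKO library was above every control. The call was lost without control 2 (limma adjusted p = 0.0600), MKO 1 (0.0502), MKO 2 (0.107) or MKO 3 (0.107). In macrophage-like nuclei Lair1 was at 4.8 in control nuclei and 3.91 in MKO nuclei, and its highest cluster was the plasmacytoid dendritic-like one, at 14.2 and 15.6.

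Of the 9 macrophage markers 6 were called higher in the same bulk libraries, as given above. The counts of called markers here stand against 3.05% of all genes called by limma in either direction. All 8 T or NK markers had a log2 fold change above 0 and 2 were called by limma, with sums of 119 to 188 in the controls and 295 to 429 in the MKO livers. All 4 neutrophil markers were above 0 and 1 was called, with sums of 131 to 149 and 209 to 290. Of 5 plasmacytoid dendritic markers 3 were above 0 and 0 were called by limma, with sums of 4182 to 4457 and 4306 to 4861. The part of these lists in the Lair1 difference was not tested. Itgb1, the shared chain of the collagen-binding integrins, had -0.12 ± 0.15, Itga1, an integrin chain of collagen receptors, had 0.11 ± 0.13, and Itga10 had 0.59 ± 0.53.

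Of 10 genes of collagen breakdown limma called 0, edgeR 0 and DESeq2 1 (4.49% of all genes), and limma found 2 at an unadjusted p under 0.05 (12.1% of all genes). Mmp12, a macrophage metalloelastase, was read at 228, 176 and 127 in the controls and at 75.7, 96.9 and 91.5 in the MKO livers (log2 fold change -0.97 ± 0.23, limma adjusted p = 0.0719). Every MKO library was below every control, and without control 3 the difference passed (-1.19 ± 0.21, limma adjusted p = 0.0342). It did not pass without any other 1 library (limma adjusted p from 0.155 to 0.237). The signal of Mmp12 in macrophage-like nuclei was 3.52 in control nuclei and 1.03 in MKO nuclei. Timp3, an inhibitor of matrix proteases, had 0.33 ± 0.14, Timp1 0.63 ± 0.50 and the protease Ctsk 0.56 ± 0.39.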

How the data were processed

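The submitters' processing notes name Cell Ranger, DESeq2, FastQC, RSEM 1.3.3, Seurat 4.0.1, STAR and the mm10 build. Roles, settings and annotation were not given in the sources used here. Bulk signal deposited by the authors is a count per gene scaled by the size factor of its library. Whole reads were recovered for 100% of values (tolerance 0.01). The nucleus signal deposited by the authors is a mean per gene, cluster and pool, and each of 26 columns sums to 10000. The samples labelled as pooled were read as the nucleus libraries, since their labels name these columns. How doublets were treated is not stated there. Log2 fold changes and p-values of the authors' deposited table are quoted only where named.

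Bulk values were tested with limma-trend (limma 3.58.1, R 4.3.3) on log2(value + 1), genotype only, over 15249 genes with a mean of at least 1 (34 left out), with Benjamini-Hochberg adjustment over all of them and calls at an adjusted p under 0.05. Fold changes on this scale understate low genes. edgeR 4.0.16 (quasi-likelihood) and DESeq2 1.42.0 on recovered reads, other pseudocounts, filters and scalings, a replicate block and each library left out were alternatives. The fits were tested on simulated data. The members and lists were chosen with earlier results of these data known. Named members are up to 4 fibrillar and 2 of every other class by mean value, with those at an unadjusted p under 0.05 or without overlap; each pathway list gave its 4 smallest p. Replicate libraries were not duplicates: chi-square over degrees of freedom was 28.1 to 73.1 for each pair.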

Additional observations from a re-analysis of the deposited data

How the results depend on the processing

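The count of 0 called collagens, the 5 at an unadjusted p under 0.05 and the 2 called pathway genes kept within 1.5 times under both other pseudocounts, both other filters, TMM scaling, edgeR and DESeq2. Leaving out 1 library gave 0 to 2 called, 2 to 8 at an unadjusted p under 0.05, a median log2 fold change from -0.05 to 0.19 and 0 to 2 called pathway genes. Without control 3 and MKO 1 together, chosen after seeing the data, 4 were called and 8 were at an unadjusted p under 0.05. Directions turned in 6 named members. Col23a1 was 0.11 with edgeR and with DESeq2, -0.46 to 0.24 without 1 library and 0.24 without both. Over single libraries left out Col6a1 ranged from -0.053 to 0.41, Col4a1 from -0.17 to 0.16, Col7a1 from -0.040 to 0.87, Col6a3 from -0.57 to 0.11 and Col15a1 from -0.25 to 0.23. Without both libraries Col4a1 was 0.13, Col6a3 0.06 and Col15a1 -0.02. The cause was not tested.

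In the nuclei, a 75th percentile threshold gave 50 measurable pairs against 29. With an added constant of 1/2 of the threshold 0 pairs passed 2-fold, against 5, because a larger constant shrinks every ratio. Depth behind the cluster means is unknown.

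Over all genes, deviations of same-numbered libraries had correlations of 0.0557, -0.0300 and -0.109. These values cannot exclude a factor that same-numbered libraries share for some genes. With the replicate block 0 collagens were called, 7 were at an unadjusted p under 0.05 and 2 pathway genes were called. The median log2 fold change was 0.02. The block changed no call count. It lowered the SE of Col5a3 from 0.59 to 0.25 (limma unadjusted p = 0.0101, adjusted p = 0.191 with the block). The SE of Col6a6 fell from 0.47 to 0.25 (limma adjusted p = 0.138) and that of Col27a1 from 0.44 to 0.25 (limma adjusted p = 0.515). That of Col4a3 rose from 0.40 to 0.46. Among the other members some SEs fell and others rose. The labels do not state that same-numbered libraries belong together.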
